A study of Mus musculus with 6 samples.

Results

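The enteroendocrine transcription factors are the genes that carry an intestinal secretory progenitor into the hormone-producing lineage and then set which hormone the cell makes. The 9 members Neurog3, Neurod1, Insm1, Pax4, Pax6, Isl1, Nkx2-2, Rfx6 and Fev were taken by symbol from a table of 21397 mouse genes, where all 9 were listed and were above 0 in every library. Expression was measured by RNA sequencing of small intestinal organoids, self-renewing epithelial cultures that hold stem, absorptive and secretory cells, grown from crypts of Fpr2f/f mice. These animals carry floxed alleles of the formyl peptide receptor gene Fpr2 in both groups. Organoids of the MMK-1 group (3 libraries) were treated with MMK-1, a peptide agonist of FPR2. Those of the Control group (3 libraries) received the vehicle, DMSO, alone. DMSO was at 0.1% in both groups, and both were collected on day 5. The dose is 1 μM in the protocol and 1 mM in the treatment label, and the protocol's value is taken here. The study describes each sample as organoids from 3 mice, so the 3 libraries of a group are pools, and p-values measure the spread between these pools. The question for these genes was whether activating FPR2 shifted the endocrine program.

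In the crypt, a progenitor that escapes Notch signalling becomes secretory, and a brief pulse of Neurog3, a basic helix-loop-helix (bHLH) factor, commits it to the enteroendocrine fate. Neurod1, a second bHLH factor and a target of Neurog3, Insm1, a zinc finger factor, and Rfx6, a winged-helix factor, then drive differentiation. Pax4, Pax6, Isl1, Nkx2-2 and Fev sort the cells among hormone types. Enteroendocrine cells are a rare part of the intestinal epithelium.

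Promoters of the factors are shown because the first factors of the cascade are bHLH proteins, which bind the E-box, spelled CANNTG on either strand. Binding was not tested here. RefSeq promoter windows of the mouse build GRCm38.p6, 300 bases long and reaching from 250 bases before to 50 bases after a transcript start, matched 7 of the 9 members. Insm1 and Pax4 had no window. The stretches below are only those that held an E-box before the first annotated exon. They run 5′ to 3′ up to that exon, with each E-box in capitals.
Neurog3 (chr10:62132840-62133089, plus strand): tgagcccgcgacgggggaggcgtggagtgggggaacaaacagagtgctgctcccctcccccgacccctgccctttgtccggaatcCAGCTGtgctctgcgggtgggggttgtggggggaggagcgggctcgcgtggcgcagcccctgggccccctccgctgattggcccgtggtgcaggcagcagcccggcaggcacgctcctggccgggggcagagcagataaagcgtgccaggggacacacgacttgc
Neurod1 (chr2:79456752-79456886, minus strand): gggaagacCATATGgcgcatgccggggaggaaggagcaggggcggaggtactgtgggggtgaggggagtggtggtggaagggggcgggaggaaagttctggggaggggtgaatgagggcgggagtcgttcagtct
Nkx2-2 (chr2:147186456-147186652, minus strand): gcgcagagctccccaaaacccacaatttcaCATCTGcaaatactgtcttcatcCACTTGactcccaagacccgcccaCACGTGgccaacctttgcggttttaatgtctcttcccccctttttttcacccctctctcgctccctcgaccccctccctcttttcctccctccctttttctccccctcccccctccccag
Isl1 (chr13:116309690-116309938, minus strand): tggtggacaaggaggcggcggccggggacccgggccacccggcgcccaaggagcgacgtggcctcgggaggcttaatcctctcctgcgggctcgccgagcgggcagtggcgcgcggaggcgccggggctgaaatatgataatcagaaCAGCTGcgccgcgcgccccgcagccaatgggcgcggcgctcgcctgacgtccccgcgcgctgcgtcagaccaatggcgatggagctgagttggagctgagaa

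The Neurog3 E-box began 165 bases before the start and the Isl1 E-box 103 bases before it, and both read CAGCTG, which 16.3% of all 32851 windows held. The Neurod1 window held CATATG, 242 bases before the start. The Nkx2-2 window held 3 E-boxes of differing letters, beginning 220, 197 and 173 bases before the start, and it lies inside the longest annotated gene model. Rfx6 had an E-box just after its start, 1 of the 2 Pax6 windows had one, and the Fev window had none. In all, 6 of the 8 windows of the members held an E-box, and so did 72.3% of all windows.

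Neurog3, Neurod1, Insm1, Rfx6 and Fev were higher with MMK-1 among genes with a mean of at least 1 FPKM, the number of fragments scaled to gene length and library size. Over every gene above 0, Pax6 and Nkx2-2 were higher as well, Pax4 and Isl1 passed in neither direction, and no member was lower. The group means of the 7 called members were 1.43 to 2.32 times the Control means, led by Neurod1 and Neurog3. The tests were limma fits on log2(FPKM + 1), with an adjusted p (Benjamini-Hochberg) of at most 0.05 as the threshold. In the fit to genes with a mean of at least 1 FPKM, 5 of 5 members tested were called higher, where 48.5% of all 10551 genes were. In the fit to every gene above 0, 7 of 9 members were called higher, where 28.1% of all 20676 genes were, and 0 were called lower, where 15.2% were. Without the adjustment 0 members were lower at 0.05 in that fit as well, and limma-voom on fragments called 0 lower. The median log2 fold change of the 9 members was 0.43, and that of all 20676 genes was 0.01. On this scale a fold change is understated for genes at low levels, so a second fit on fragments is given for each member.

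The libraries held 35512739 to 37537463 fragments. MMK-1 replicate 3 stood apart from its group, since its fragments differed from those of the other MMK-1 libraries by a chi-square of 29.4 and 34.4 per gene, against 2.78 to 4.78 for every other pair within a group. Results below are also given without it where that changed them. Leaving it out, the members called higher were 5 among genes with a mean of at least 1 FPKM and 6 over every gene above 0, with Fev lost from the latter. In the fit to every gene above 0, stem cell markers were higher with MMK-1 in 10 of 10 genes, where 28.1% of all genes were. Enterocyte markers were lower in 13 of 14, where 15.2% of all genes were. Fewer cells of a type and less RNA per cell cannot be told apart in such bulk samples.

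Neurog3 (chr10:62133090-62134763, plus strand, 2 exons) starts the cascade. Its FPKM was 2.12, 1.82 and 2.21 in Control and 3.69, 4.50 and 4.35 with MMK-1. Every treated library was above every Control library, and the group means were 2.05 ± 0.204 and 4.18 ± 0.430 (SD, n = 3 each). The log2 fold change was 0.77 ± 0.08 (SE), with an adjusted p of 3.1e-05 in limma over genes with a mean of at least 1 FPKM. On fragments, of which the libraries held 105 to 249, the fold was 2.04 with a 95% interval of 1.63 to 2.55. The gene Fam241b covers the whole of Neurog3 on the opposite strand and shares 273 exonic bases with it, and whether strand was used in counting is not given in the sources used here. Without strand, reads from exonic bases that genes on opposite strands share cannot be told apart, which also holds for Neurod1 and Nkx2-2. Fam241b itself was at 8.37 ± 0.0637 FPKM in Control and 8.08 ± 0.399 with MMK-1 (adjusted p = 0.44 by limma).

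Neurod1 (chr2:79452521-79456751, minus strand, 2 exons) acts directly after Neurog3 and promotes cell cycle exit and hormone gene expression. Its FPKM was 1.68, 1.48 and 1.91 in Control and 4.53, 4.31 and 2.90 with MMK-1. The groups did not overlap, but MMK-1 replicate 3 was well below the other treated libraries. The means were 1.69 ± 0.212 and 3.91 ± 0.886 (SD, n = 3 each), and this was the largest fitted change among the members on both scales. The log2 fold change was 0.86 ± 0.13 (SE; adjusted p = 0.00031 by limma), and without MMK-1 replicate 3 it was 1.01 (adjusted p = 6.5e-06 by limma). On fragments the fold was 2.27, with a 95% interval of 1.70 to 3.05. Its fragments in the treated group, 402, 387 and 269, had a variance 18.4 times that of counting error alone, measured as chi-square per degree of freedom. No other member exceeded 5.27 in either group. Neurod1 also had the lowest GC content of the members, 43.6%, and after correction of each library for GC content the value of MMK-1 replicate 3 was 1.99 on the log2(FPKM + 1) scale, against 2.42 and 2.36 in the other treated libraries. Cerkl, which covers Neurod1 on the same strand, was at 0.0657 FPKM in Control and 0.0363 with MMK-1. Gm26755, on the opposite strand, shares 154 exonic bases with Neurod1 and was not analysed here.

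Insm1 (chr2:146221921-146225020, plus strand, a single exon) is a zinc finger factor that pushes endocrine progenitors to differentiate. Its FPKM was 1.82, 1.74 and 2.31 in Control and 3.08, 3.35 and 3.62 with MMK-1. Control replicate 3 was the highest of its group and still below every treated library. The means were 1.96 ± 0.307 and 3.35 ± 0.274 (SD, n = 3 each), with a log2 fold change of 0.56 ± 0.08 (SE; adjusted p = 0.00032 by limma). On fragments the fold was 1.72, with a 95% interval of 1.42 to 2.08.

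Rfx6 (chr10:51677756-51730432, plus strand) is needed for incretin-producing cells. Its FPKM was 1.02, 0.993 and 1.15 in Control and 1.76, 2.02 and 1.64 with MMK-1. The groups were well separated, at means of 1.06 ± 0.0825 and 1.81 ± 0.190 (SD, n = 3 each). The log2 fold change was 0.45 ± 0.07 (SE; adjusted p = 0.00042 by limma), and the fold on fragments was 1.70 (95% interval 1.39 to 2.09).

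**Figure D1:**
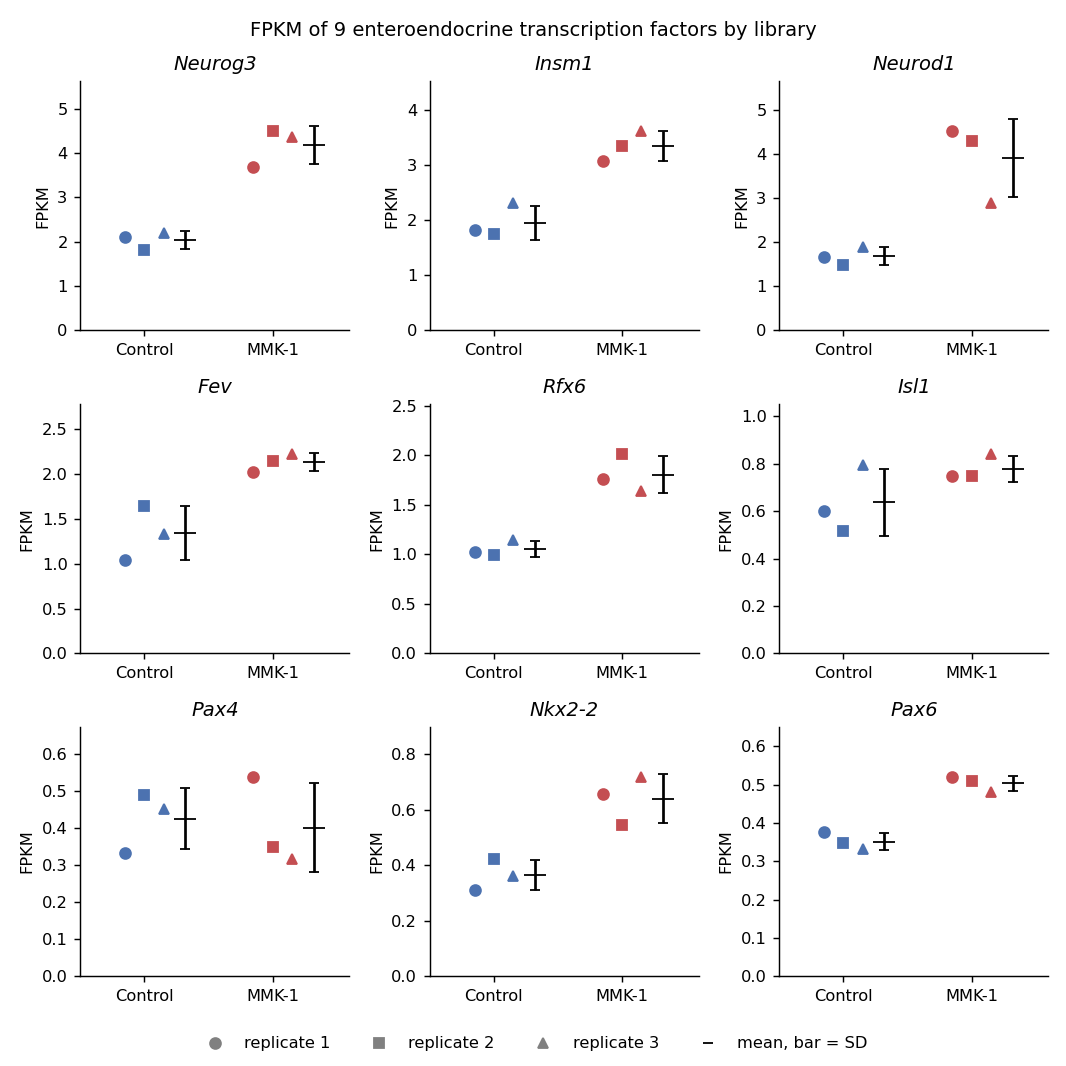
FPKM (y axis, each panel from 0) of the 9 factors in the 3 Control and 3 MMK-1 libraries (x axis), with a symbol per replicate number and the group mean and SD in black. The groups do not overlap in 7 panels, and they overlap for Isl1 and Pax4.

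Fev (chr1:74881509-74885419, minus strand), an ETS factor known from serotonin neurons and from endocrine progenitors, was the least certain of the 5 more abundant members. Its FPKM was 1.05, 1.65 and 1.33 in Control and 2.03, 2.14 and 2.23 with MMK-1. The treated libraries lay close together, whereas the Control libraries spread widely without reaching them. The means were 1.34 ± 0.302 and 2.13 ± 0.100 (SD, n = 3 each), and the log2 fold change was 0.43 ± 0.09 (SE; adjusted p = 0.0028 by limma). On fragments the fold was 1.61, with a 95% interval of 1.21 to 2.15. Fitted over every gene above 0, the adjusted p was 0.018, and it rose to between 0.052 and 0.067 without Control replicate 3 or any one of the MMK-1 libraries, while the log2 fold change stayed between 0.41 and 0.45. Fev had the highest GC content of the members, 63.2%, and after GC correction its log2 fold change was 0.29 (adjusted p = 0.029 by limma).

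Nkx2-2 (chr2:147177546-147194243, minus strand), a homeodomain factor that allocates cells among hormone types, lay 953 kb from Insm1 on the same chromosome. Its FPKM was 0.312, 0.423 and 0.359 in Control and 0.658, 0.544 and 0.718 with MMK-1, with no overlap. The log2 fold change on log2(FPKM + 1) was 0.26 ± 0.05 (SE; adjusted p = 0.0083 by limma over every gene above 0). On fragments, 67 to 153 in a library, the fold was 1.75 (95% interval 1.32 to 2.34), close to those of Insm1 and Rfx6. Nkx2-2os, on the opposite strand, shares 278 exonic bases with Nkx2-2 and was at 0.0041 FPKM in Control and listed at 0 in every MMK-1 library.

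Pax6 (chr2:105668900-105697364, plus strand), a paired homeodomain factor that activates glucagon and other hormone genes, was the steadiest member. Its FPKM was 0.376, 0.347 and 0.332 in Control and 0.520, 0.509 and 0.481 with MMK-1. The groups were tight and separate, with coefficients of variation of 6.39% and 4.06%. The log2 fold change was 0.15 ± 0.02 (SE; adjusted p = 0.0030 by limma over every gene above 0). On fragments the fold was 1.43, with a 95% interval of 1.08 to 1.90 and an adjusted p of 0.031 by limma-voom. With upper-quartile scaling and a pseudocount of 0.1 together, chosen after seeing the data, the call was lost (adjusted p = 0.066 by limma). Pax6os1 lies on the opposite strand of Pax6, shares no exonic bases with it and was at 0.0729 FPKM in Control and 0.0698 with MMK-1.

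Isl1 (chr13:116298281-116309689, minus strand), a LIM homeodomain factor of several hormone cell types, did not pass the test. Its FPKM was 0.602, 0.517 and 0.794 in Control and 0.747, 0.749 and 0.842 with MMK-1. Control replicate 3 lay above 2 of the treated libraries. The adjusted p was 0.22 by limma over every gene above 0, and the fold on fragments was 1.24 with a 95% interval of 0.886 to 1.73, which holds both no change and the change seen for Rfx6. Without Control replicate 3 the log2 fold change was 0.19 and passed (adjusted p = 0.034 by limma).

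Pax4 (chr6:28442334-28449353, minus strand), a paired homeodomain factor of hormone cell allocation, did not pass either. Its FPKM was 0.334, 0.491 and 0.453 in Control and 0.540, 0.349 and 0.317 with MMK-1. The highest value was a treated library and the lowest was also one, so the groups were interleaved. With 16 to 26 fragments in a library, the fold on fragments was 0.929 with a 95% interval of 0.537 to 1.61 (adjusted p = 0.82 by limma-voom). That interval holds no change, a fall and a rise.

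**Figure D2:**
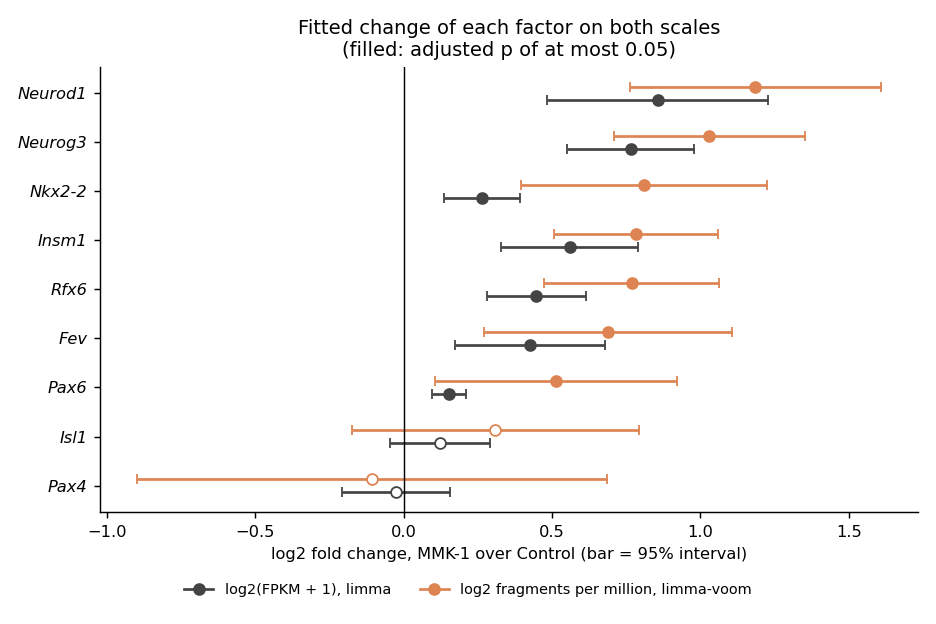
Fitted log2 fold change of MMK-1 over Control (x axis) for each factor (y axis), with 95% intervals, on log2(FPKM + 1) in the fit to every gene above 0 (grey) and on log2 fragments scaled to library size by limma-voom (orange). Filled points passed an adjusted p of 0.05, and Isl1 and Pax4 are open on both scales.

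On fragments, limma-voom called 7 of the 9 members higher, where 39.1% of 15913 genes were. The median of the 9 log2 fold changes was 0.77 on this scale, and that of all genes tested was 0.17. A stricter rule asked for a doubling as well as a nominal p within 0.05, and on fragments Neurog3 and Neurod1 were the 2 members that met it, beside 10.9% of all genes in the upward direction. On log2(FPKM + 1), 0 members met that rule, and 3.39% of genes with a mean of at least 1 FPKM did. The ranges of the FPKM values did not overlap in 7 members, all higher, where 34.6% of genes above 0 were higher without overlap. By exact permutation of the libraries each of these 7 had a two-sided p of 0.1, the smallest that 3 against 3 allows (0.13 after Benjamini-Hochberg adjustment over the 9), Isl1 had 0.3 and Pax4 0.9.

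The order of the levels per length changed little. In Control the mean FPKM fell from Neurog3 through Insm1, Neurod1, Fev and Rfx6, whose neighbours overlapped in range, to Isl1 at 0.638, Pax4 at 0.426, Nkx2-2 at 0.365 and Pax6 at 0.351. Isl1 stood clear of Rfx6 above it and of Pax4 below it, and the last 3 overlapped with their neighbours. With MMK-1 Neurog3, Neurod1 and Insm1 were at the top, where the range of Neurod1 overlapped both others and those of Neurog3 and Insm1 were separate, Fev, Rfx6, Isl1, Nkx2-2 and Pax6 followed in separate ranges, and Pax4, whose range overlapped that of Pax6, was the lowest at 0.402. The summed FPKM of the 9 members was 9.31, 9.46 and 10.8 in Control and 17.6, 18.5 and 17.1 with MMK-1. Neurog3, Neurod1 and Insm1 made up 53.3% to 60.3% of that sum in Control and 63.6% to 65.8% with MMK-1.

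Chga, the granule protein by which enteroendocrine cells are usually counted, is given here as the reference in the same library. Chga was at 42.1, 40.2 and 39.2 FPKM in Control and 42.0, 39.9 and 44.0 with MMK-1. The groups overlapped, and the log2 fold change was 0.05 ± 0.05 (SE; adjusted p = 0.45 by limma over every gene above 0). The FPKM of Neurog3 relative to that of Chga was 5.02%, 4.52% and 5.63% in Control and 8.79%, 11.3% and 9.89% with MMK-1. The log2 ratio was −4.31 ± 0.16 in Control and −3.33 ± 0.18 with MMK-1 (SD, n = 3 each), a difference of 0.98 with no overlap and an exact permutation p of 0.1, the smallest possible here. The ratio to Chga was higher without overlap for 7 of the 9 members, the same 7 as for FPKM, and it overlapped for Isl1 and Pax4. Of all other genes above 0, 29.9% had a ratio to Chga that was higher without overlap.

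**Figure D3:**
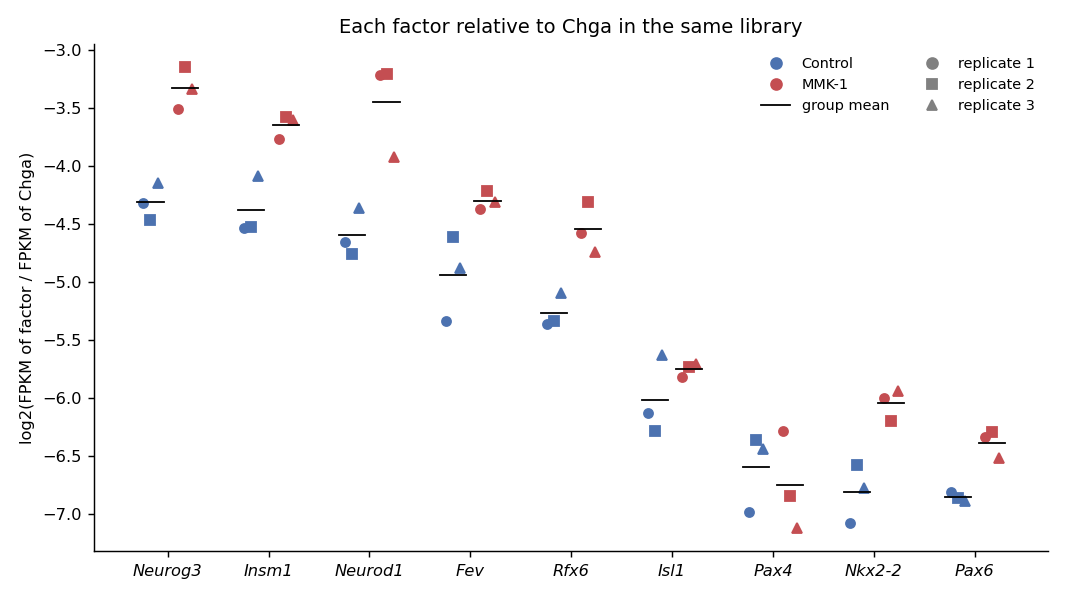
log2 of the FPKM of each factor divided by the FPKM of Chga in the same library (y axis) for the 9 factors (x axis), Control in blue and MMK-1 in red, with the group means as lines. Red points lie above all blue points for every factor but Isl1 and Pax4.

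Chgb, a more abundant granule protein, rose itself, from 106 ± 5.49 to 129 ± 7.04 FPKM (SD, n = 3 each; adjusted p = 0.0090 by limma), and the log2 ratio of Neurog3 to Chgb was still higher by 0.75 without overlap (exact permutation p = 0.1). Of these ratios, Neurog3 to Chga alone was planned, and the other ratios to Chga, that to Chgb and those between members were chosen after their values were seen. Pax4 was 15.8%, 27.0% and 20.6% of Neurog3 in Control and 14.6%, 7.75% and 7.29% with MMK-1, lower in every treated library (exact permutation p = 0.1). The ratios of Neurod1 to Neurog3 (exact permutation p = 0.7) and of Fev to Neurog3 (exact permutation p = 0.3) overlapped between groups. Over the 13 ratios computed, no adjusted p by permutation was below 0.14.

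Other regulators of the secretory and endocrine lineages were described by a list of 23 genes, of which 21 were in the table. In the fit to every gene above 0, 11 rose, 0 fell and 10 did not pass, with a median log2 fold change of 0.11 against 0.01 for all genes. The share that rose is read against the 28.1% of all genes called higher in this fit, as it is for each list below. On fragments the median was 0.88, above that of the 9 factors (0.77) and against 0.17 for all genes, so the order of these lists turned with the scale. On that scale 11 of the 21 were higher and 1 lower by limma-voom, where 39.1% of all genes were higher. Sox4, an HMG-box factor of early endocrine progenitors, rose from 10.5 ± 0.425 to 33.4 ± 1.88 FPKM (log2 fold change 1.58, adjusted p = 1.4e-05 by limma). The forkhead factor Foxa2 rose from 0.999 ± 0.131 to 3.02 ± 0.159 FPKM and Foxa1 from 5.14 ± 0.120 to 9.79 ± 0.364 FPKM (SD, n = 3 each). Atoh1, the bHLH factor that opens the secretory fate before Neurog3 and is named here after its values were seen, was at 2.08, 2.84 and 2.02 FPKM in Control and 4.17, 2.81 and 3.80 with MMK-1, with overlap. Its log2 fold change of 0.47 missed the threshold in the fit to every gene above 0 (adjusted p = 0.051 by limma), passed it among genes with a mean of at least 1 FPKM (adjusted p = 0.0094 by limma) and passed it on fragments (adjusted p = 0.0084 by limma-voom).

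Of 12 genes of the Notch pathway and the Hes family, 8 rose and 0 fell, with a median log2 fold change of 0.28. The ligand Jag2 rose from 1.70 ± 0.0975 to 5.46 ± 0.474 FPKM, the receptor Notch1 from 4.08 ± 0.0751 to 7.16 ± 0.234 and the target Hes1, a repressor of secretory bHLH factors, from 28.9 ± 0.476 to 45.5 ± 2.77 (SD, n = 3 each). Hes1 thus stood higher in the same libraries as Neurog3. Notch signalling through Hes1 holds progenitors back from the secretory fate. The 8 also included Hes6, which is known to oppose Hes1, at 17.7 ± 0.436 and 24.4 ± 1.12 FPKM. Whether these genes acted on one another or on Neurog3 here was not tested.

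Among 30 granule, prohormone-processing and excitability genes of the mature cell, 29 were tested, 10 rose, 1 fell and 18 did not pass, with a median log2 fold change of 0.17. The share that rose was near that of all genes, 28.1%. Among the 15 with a mean of at least 1 FPKM 10 were called higher, where 48.5% of all such genes were, and on fragments 13 of 29 were higher, where 39.1% were. Scg2, a granin, rose 1.77-fold to 5.68 ± 0.423 FPKM, the convertase Pcsk1 rose 1.80-fold from 1.91 ± 0.0805 FPKM, and Rab3d, a vesicle GTPase also used by other secretory cells, rose 1.40-fold from 10.3 ± 0.334 FPKM. Pam, which amidates peptide hormones, fell from 2.78 ± 0.0204 to 2.28 ± 0.118 FPKM (adjusted p = 0.018 by limma). The call for Pam was lost without Control replicate 3, where 0 granule genes were lower.

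Of 16 hormone and serotonin genes 14 were in the table, and 7 rose, 0 fell and 7 did not pass, with a median log2 fold change of 0.44. Nts, neurotensin, rose from 1.45 ± 0.103 to 6.96 ± 0.619 FPKM, Cck, cholecystokinin, from 35.0 ± 0.301 to 70.7 ± 2.38 and Ghrl, ghrelin, from 13.0 ± 0.366 to 24.6 ± 0.856. Gcg, the preproglucagon gene that Pax6 activates and the most abundant hormone gene here, rose from 117 ± 1.13 to 177 ± 6.91 FPKM (log2 fold change 0.59, adjusted p = 7.6e-05 by limma). Gip, which depends on Rfx6 and is named after its values were seen, was at 72.7 ± 2.25 and 75.5 ± 3.29 FPKM. It did not pass (adjusted p = 0.36 by limma). Whether either hormone gene followed a single factor was not tested.

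**Figure D4:**
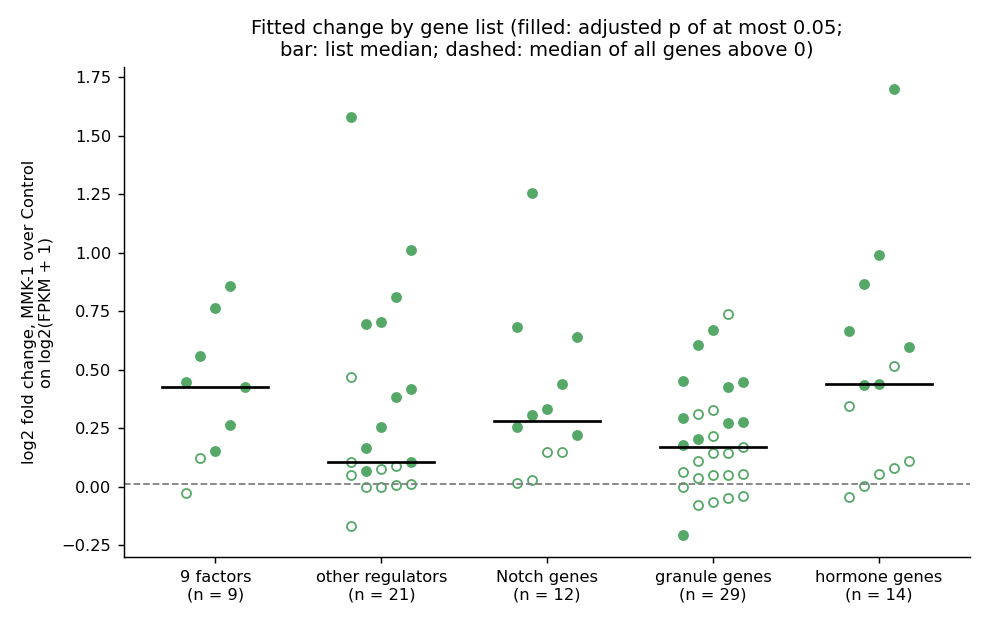
Fitted log2 fold change of MMK-1 over Control on log2(FPKM + 1) (y axis) of each gene in 5 lists (x axis), filled where the adjusted p was at most 0.05, with the list median as a bar and the median of all 20676 genes as a dashed line. The medians are 0.43 for the 9 factors, 0.11 for the other regulators, 0.28 for the Notch genes, 0.17 for the granule genes and 0.44 for the hormone genes, and on fragments, which are not plotted, they are 0.77, 0.88, 0.48, 0.41 and 0.60 in the same order.

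Several members are also expressed in enteric neurons and in pancreatic islets, so the markers of those cells were read in the same libraries. Of 11 neuron and glia markers 6 had at most 3 fragments in every library, the summed level was 6.12 to 6.28 FPKM in Control and 3.49 to 3.53 with MMK-1, and most of it was Ret, at 5.54 ± 0.0401 and 2.85 ± 0.111 FPKM. Of 4 islet markers 3 had at most 3 fragments in every library, with a summed level of at most 0.0763 FPKM. Leukocyte markers summed to 3.16 to 3.43 FPKM in Control and 1.54 to 1.70 with MMK-1, and stromal markers to 4.79 to 5.35 and 3.50 to 5.14. Without Ret, the other 10 neuron and glia markers summed to 0.539 to 0.763 FPKM in Control and 0.550 to 0.805 with MMK-1, with overlap. Most of the lower leukocyte sum was Itgam, at 2.36 ± 0.0677 and 0.938 ± 0.135 FPKM, and the other 7 markers summed to 0.738 to 1.07 and 0.611 to 0.733. Of 8 leukocyte markers 5, and of 8 stromal markers 2, had at most 3 fragments in every library. In the fit to every gene above 0, 0 markers of these 4 lists were called higher, where 28.1% of all genes were. Markers with so few fragments could hardly be called. Ret, Itgam and Csf1r were called lower, the last at 0.152 FPKM in Control and 0.00703 with MMK-1 (adjusted p = 8.4e-05 by limma).

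The genes whose profile over the 6 libraries was closest to the mean profile of the 5 more abundant members were Uqcc2, Rbbp8, Psme4, Sec14l1 and Crk, at Euclidean distances of 0.0896 to 0.0975 on centred log2(FPKM + 1). The members themselves lay 0.205 to 0.471 from that mean, Insm1 closest and Neurod1 farthest. Each of the 5 genes had a log2 fold change of 0.58 to 0.60, and the table assigned none of them to a transcription factor family.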

How the data were processed

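RNA sequencing was done on 6 organoid samples, 3 Control and 3 MMK-1, grouped by their GEO titles. The authors deposited FPKM values (fragments scaled to gene length and library size) for each gene. The submitters' processing notes name HISAT2, HTSeq, DESeq2, R 3.2.0 and the build mm10, and the study's methods name the VAHTS Universal V10 kit and 150-bp paired-end reads. No depth was listed. Whole fragments were recovered from the FPKM values, since those of a gene are whole multiples of what 1 fragment is worth at its length: 100% of the 20676 genes above 0 gave whole numbers within 0.0005.

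Values were tested as log2(FPKM + 1) with limma 3.58.1 in R 4.3.3 (trended prior), in one fit to genes with a mean of at least 1 FPKM and another to every gene above 0, with Benjamini-Hochberg adjustment over all genes of the fit and a threshold of 0.05. limma-voom on the recovered fragments, for genes with at least 10, was an alternative, and so were other scalings, pseudocounts of 0.1 and 0.5, other filters, no variance trend, a GC correction, a replicate block and leaving out each library. Intervals are 95% intervals of the fits. Scripts were tested on simulated data. Gene positions come from GENCODE vM21 (mm10, GRCm38) and promoters from RefSeq. The rule for naming took all 9 members, Chga, the 5 genes nearest in profile, and from each other list its most abundant gene and the 3 with the largest called change in each direction. It was followed for the regulator, Notch, granule and hormone lists. The cell type marker lists are given by counts and sums, and the genes named from them, Atoh1, Gfi1, Gip, Hes6 and the genes named for an alternative alone were picked after their values were seen. The members and lists were chosen with earlier results of these data known. Nkx6-3, Insm2, Mln, Gast and 6 other listed markers were not analysed here.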

Additional observations from a re-analysis of the deposited data

How the results depend on the processing

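The 5 and 7 members called higher stayed within 5 to 7 under every alternative but a stricter rule: when a call asked for a doubling and a nominal p within 0.05, the count was 0 in both fits on log2(FPKM + 1), and 2 on fragments, the latter chosen after seeing the data. Leaving out 1 library gave 5 in the first fit and 6 to 7 in the second, where Fev was lost without Control replicate 3 or any MMK-1 library and Isl1 was gained without Control replicate 3. Upper-quartile scaling with a pseudocount of 0.1, also chosen after seeing the data, lost Pax6 (adjusted p = 0.066 by limma). Pax4 turned to a log2 fold change of 0.039 under GC correction and ranged from −0.096 to 0.016 with 1 library left out, never past the threshold.

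Other regulators called higher numbered 5 instead of 11 among genes with a mean of at least 1 FPKM, where fewer genes were tested. One regulator, Hhex, was called lower under upper-quartile scaling (count 1), with pseudocounts of 0.1 or 0.5 (1 each), at a mean FPKM of at least 0.1 (1), on fragments (1), with upper-quartile scaling and a pseudocount of 0.1 (1), and in 0 to 1 regulators with 1 library left out, the call coming without Control replicate 2. Under GC correction 1 Notch gene, Hes5, and 3 granule genes, Pam, Rab3c and Snap25, were lower. Hes5 had 1 fragment in each Control library and 1, 4 and 3 with MMK-1, so its call rests on values near 0. Those called higher went from 8 to 11 Notch genes, from 10 to 15 granule genes and from 7 to 9 hormone genes. Other regulators went from 11 to 9. The GC-corrected fit covered 17244 genes, with a median log2 fold change of 0.058 against 0.010 in the main fit. The share of all genes called in it is not given here, so these counts cannot be read against it. With 1 library left out, 0 to 2 granule genes were lower (0 without Control replicate 3, 2 without MMK-1 replicate 1) and 0 to 1 hormone genes, Npy without Control replicate 3. The causes were not tested. The log2 ratio of Neurog3 to Chga was 0.89 to 1.07 higher with 1 library left out.

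Replicate numbers did not pair the samples: deviations of same-numbered libraries correlated at 0.03, −0.04 and 0.03. With a replicate block, members called higher were 5 and 7, other regulators 10, Notch genes 7, granule genes 11 and hormone genes 7, and 0 granule genes were lower. Not every library correlated best with its own number.

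Of 431 values under alternatives 405 kept their direction and side of the threshold, or a count within 1.5 times. Pax4 had the fewest fragments of the members, 16 to 26 a library. The intervals cover only the spread between these pools.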

Other observations

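The table assigns each member to a transcription factor family, and the members can be ranked within it among genes with a mean of at least 1 FPKM. Of 43 bHLH genes tested 27 rose and 8 fell by limma, and Neurod1 ranked 4 and Neurog3 7 by log2 fold change on log2(FPKM + 1). Of all genes in that fit 48.5% were called higher. The median of the bHLH genes was 0.26, and that of all genes in the fit was 0.13. Of 291 C2H2 zinc finger genes 186 rose and 23 fell, beside the same 48.5%, and Insm1 ranked 60. Of 4 RFX genes 3 rose and 0 fell, and Rfx6 ranked 2. Of 16 ETS genes 14 rose and 1 fell, again beside 48.5% of all genes. The ETS median was 0.42, near the 0.43 of Fev, which ranked 7. Among all 753 transcription factors tested Neurod1 ranked 59, Neurog3 83, Insm1 164, Rfx6 241 and Fev 251.

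Among genes of the tuft, goblet and Paneth lineages, Pou2f3, the factor that specifies tuft cells, rose from 0.213 ± 0.0191 to 0.614 ± 0.0491 FPKM (SD, n = 3 each; adjusted p = 0.00016 by limma over every gene above 0), and 2 of 11 tuft genes rose and 0 fell, where 28.1% of all genes were called higher. Gfi1, a goblet and Paneth cell regulator, was at 0.498 ± 0.0960 and 0.577 ± 0.0624 FPKM and did not pass (adjusted p = 0.36 by limma). Spdef, a goblet and Paneth cell factor of the ETS family, rose from 2.29 ± 0.160 to 3.34 ± 0.270 FPKM (adjusted p = 0.0054 by limma), whereas goblet genes were mixed, with 6 higher and 2 lower of 10. Paneth cell genes were higher in 7 of 9 and lower in 1.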
